A study of Mus musculus with 12 samples.

Results

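The mRNAs described here encode the extracellular matrix of 4T1 cells and the proteases that cut it. They were chosen by gene symbol: every collagen chain, laminin chain, matrix metalloproteinase (MMP), tissue inhibitor of metalloproteinases (TIMP) and numbered ADAMTS protease, together with Fn1, Tnc, Thbs1, Sparc, Fstl1 and Spp1. The rule found 107 genes among the 55376 of the count table. Of these, 72 had at least 1 read in some library and 35 had none. The test across all genes kept 46 of them, under a filter of 1 CPM (counts scaled to a common library size) in at least 3 libraries. Of the 46, 39 met that filter in each genotype on its own, 3 met it only through the METTL7A1 libraries (Adamts4, Adamts7, Col15a1) and 4 only through the mock libraries (Fstl1, Col6a1, Col12a1, Col20a1).

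4T1 is a mouse mammary gland cancer cell line. Mock cells carried the empty vector and METTL7A1 cells carried a FLAG-tagged Mettl7a1 cDNA under a CMV promoter, both after stable transfection and G418 selection; whether each is a clone or a pool of clones was not stated. All cells were treated with 0.1 mg/ml cycloheximide for 5 min before lysis, and cytoplasmic lysates were run on sucrose gradients. RNA of fractions 3 to 7, which hold free ribosomal subunits and single ribosomes, formed the sub-polysomal pool, and RNA of fractions 8 to 11, with several ribosomes per mRNA, formed the polysomal pool. There were 3 libraries for each of the 4 groups, named A to C for mock and D to F for METTL7A1 cells, and nothing in the labels says that the letters stand for separate cultures, so p-values measure the spread between these libraries.

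Epithelial cells rest on a basement membrane, a sheet built from a type IV collagen network and laminins, each laminin being a trimer of an alpha, a beta and a gamma chain. Fibronectin and the matricellular proteins bind cells to the matrix or modify that binding, and fibrillar collagens give stroma its strength. Secreted MMPs are released as inactive precursors and together cut most matrix proteins. Membrane-type MMPs act at the cell surface, ADAMTS proteases cut proteoglycans and procollagens, and TIMPs block the active site of MMPs. Nearly all of these proteins are made on ribosomes at the endoplasmic reticulum.

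The libraries held 1817520 to 6966156 counts, with the lowest total in mock sub-polysomal library A. The transfected gene checked the labels, since Mettl7a1 stood at 1.26 to 3.28 CPM in the mock libraries and at 236 to 395 CPM in the METTL7A1 libraries. All 6 epithelial markers examined were abundant, Epcam lying between 171 and 561 CPM and Krt18 between 779 and 1758 CPM. Of 7 mesenchymal or fibroblast markers, Vim was at 134 to 402 CPM, Pdgfra at up to 5.87 CPM, and Pdgfrb, Thy1 and Lum had no count in any library. Of 5 leukocyte markers, Ptprc and Itgam never exceeded 1 count and Cd3e had none, while Cd68, a lysosomal protein also made outside the leukocyte lineage, lay between 4.64 and 22.3 CPM. The summed CPM of that list was 8.18 to 11.3 in mock and 11.2 to 18.4 in METTL7A1 sub-polysomal RNA, and 4.64 to 7.94 in mock and 14.2 to 22.6 in METTL7A1 polysomal RNA. The summed epithelial list was 3026 to 3114 in mock and 3108 to 3734 in METTL7A1 sub-polysomal RNA, and 3739 to 4422 against 5672 to 6565 in polysomal RNA. The mesenchymal list, which is mostly Vim, was at 201 to 224 against 136 to 174 in sub-polysomal and at 325 to 408 against 270 to 333 in polysomal RNA. The part of these lists in the differences below was not tested.

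Together the 107 genes took 0.435 ± 0.044% of counts in mock sub-polysomal RNA and 0.668 ± 0.069% in mock polysomal RNA (mean ± SD, n = 3, as for all values given in this form). The shares in METTL7A1 cells were 0.376 ± 0.042% and 0.764 ± 0.10%. Normalised read counts are given as CPM after scaling by trimmed mean of M values (TMM) over all genes, and levels are compared between genes only after division by exon length (CPM per kb). On that scale Spp1, which encodes the secreted phosphoprotein osteopontin, was first with a mean of 272 CPM per kb over the 12 libraries, and Timp1 (263), Timp2 (170), Mmp3 (143) and Mmp9 (106) were also among the highest. TPM values, which also divide by the sum over all genes, gave the same order for these 5 genes. Lamb1, a beta chain of many laminins, had 54.6 CPM per kb, followed by Mmp10 (52.6), Fn1 (52.5) and Lamb3 (42.7).

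Several members were rare or absent. Col1a1, the main chain of type I collagen, had 3 counts in all 12 libraries, and Mmp2, a gelatinase typical of stromal cells, had 6. Of the 11 fibrillar collagen genes, Col5a1 alone passed the filter. Timp3 and Timp4 had no count. At these depths a count of 0 in a library allows a level of up to 0.372 to 1.69 CPM, a limit that covers counting error only.

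**Figure D1:**
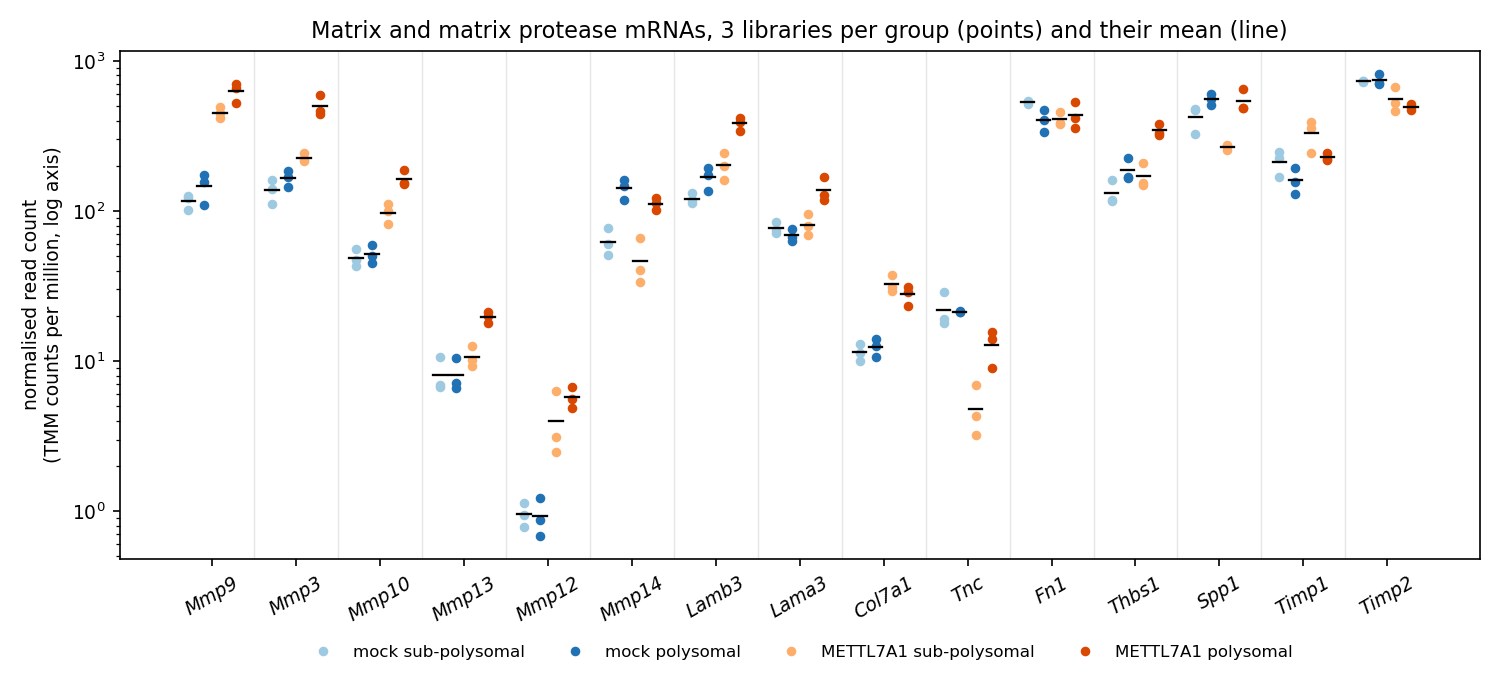
Normalised read counts (TMM-scaled CPM, log axis) of 15 genes in the 4 groups. Each point is 1 library and each black line the mean of 3. Mmp9, Mmp3 and Mmp10 are higher in both METTL7A1 groups than in the mock group of the same pool without overlap, Lama3 stands apart in METTL7A1 polysomal RNA, and Tnc is lowest in METTL7A1 sub-polysomal RNA.

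METTL7A1 cells were compared with mock cells in polysomal RNA, to ask which mRNAs differ among those being translated. In bulk RNA of this kind a change in mRNA per cell and a change in the share of cells that make it cannot be told apart. Secreted MMPs had the largest median difference of the 9 groups of members. Of the 8 tested, 7 had a log2 change above 0, 6 rose at an adjusted p below 0.05, and the median was 1.44. The call rule asked for an adjusted p under 0.01 together with a log2 change beyond 1.5 (edgeR's quasi-likelihood test, Benjamini-Hochberg adjustment over 12224 genes). The 5 called members, Mmp9, Mmp12, Mmp10, Mmp3 and Adamts4, were all higher, against 0.982% of all genes tested, and 0 were called lower, against 1.15%. Adamts4 had met the filter only through the METTL7A1 libraries, and over the 39 members that met it in each genotype 4 were called higher and 0 lower. At an adjusted p below 0.05 with no limit on size, 15 members were higher, against 9.69% of all genes, and 3 were lower, against 8.28% (14 and 2 over those 39). With counts scaled to Actb instead the split was 15 to 1. The 3 lower members were Tnc, Timp2 and Col6a1, and 0 were lower without METTL7A1 library E and 1 without library F. Without METTL7A1 library D, 3 members were called in place of 5. At an unadjusted p below 0.05 there were 21 higher members, against 16.1% of all genes higher, and 5 lower members. Scaled to Actb the higher members at that limit were again 21, against 18.9% of all genes. The median log2 change was 0.23 over the 46 members and -0.014 over all genes tested.

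Mmp9 encodes gelatinase B, which cuts denatured collagen and type IV collagen (chromosome 2, 164948219 to 164955850, plus strand; all positions are GRCm38). It stood at 157, 109 and 175 CPM in the mock polysomal libraries and at 698, 661 and 523.5 CPM in the METTL7A1 ones. Every METTL7A1 library lay above every mock library, a 4.26-fold difference (log2 change 2.09, standard error 0.18, adjusted p = 2.12e-07). In sub-polysomal RNA the levels were 126, 123 and 102 CPM in mock and 494, 447 and 416 CPM in METTL7A1 cells (log2 change 1.96, standard error 0.18, adjusted p = 6.96e-07). The 2 pools thus gave nearly the same difference for this gene.

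The stromelysins cut proteoglycans, fibronectin and laminin and activate other MMPs. Mmp3 (stromelysin-1) was at 170, 145 and 184 CPM in mock polysomal RNA and at 589, 465 and 440 CPM in METTL7A1 polysomal RNA, with no overlap (log2 change 1.58, standard error 0.16, adjusted p = 1.82e-06). In sub-polysomal RNA its log2 change was 0.72 (standard error 0.16, adjusted p = 0.00271), from 138 ± 25 to 227 ± 14 CPM. Mmp10 (stromelysin-2) rose from 51.6 ± 7.0 to 164 ± 21 CPM in polysomal RNA (log2 change 1.67, standard error 0.15, adjusted p = 4.93e-07) and from 48.4 ± 6.6 to 97.6 ± 14 CPM in sub-polysomal RNA (log2 change 1.00, standard error 0.16, adjusted p = 0.000203). For both stromelysins the smaller change lay in sub-polysomal RNA, and the test of that difference is given with the shift below. The polysomal log2 change of Mmp3 was just under the limit of 1.5 without mock library B (1.49) and without METTL7A1 library D (1.44), with adjusted p of 3.42e-05 and 6.18e-05.

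Mmp12, the macrophage elastase, was rare. It had 21 counts over the mock polysomal libraries (1.23, 0.687 and 0.869 CPM) and 119 over the METTL7A1 ones (5.62, 4.88 and 6.74 CPM), which do not overlap (log2 change 2.59, standard error 0.35, adjusted p = 4.75e-05). In sub-polysomal RNA it had 9 and 42 counts (log2 change 2.05, standard error 0.50, adjusted p = 0.00424), and its adjusted p there was above 0.01 without mock library B (0.0144), mock library C (0.0357) or METTL7A1 library D (0.0367). Mmp13, collagenase 3, stood at 10.5, 7.15 and 6.58 CPM in mock polysomal RNA and at 21.4, 17.98 and 20.04 CPM in METTL7A1 polysomal RNA (log2 change 1.29, standard error 0.19, adjusted p = 0.000115). It was not called because of its size. In sub-polysomal RNA its log2 change was 0.47 (standard error 0.25, adjusted p = 0.167), with libraries of both genotypes overlapping.

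Mmp3, Mmp10, Mmp12 and Mmp13 are neighbours. The 10 MMP genes of chromosome 9 lie within 427.1 kb (7272514 to 7699585), in the order Mmp13, Mmp12, Mmp1b, Mmp3, Mmp1a, Mmp10, Mmp8, Mmp27, Mmp20 and Mmp7. The 6 nearest to Mmp13 passed the filter, and the other 4 had no count in any library. The collagenase copies Mmp1b and Mmp1a had 140 and 141 counts in all, with polysomal log2 changes of 1.20 (standard error 0.37, adjusted p = 0.0318) and 0.96 (standard error 0.41, adjusted p = 0.114). The value of Mmp1b passed 0.05 only narrowly, since its adjusted p lay between 0.0523 and 0.126 without mock library B or C or METTL7A1 library D, E or F. Of the 31-base stretches of the Mmp1b transcript, 20.7% also occur in Mmp1a, and 11.4% of those of Mmp3 occur in Mmp10, so reads could be split between these pairs, depending on how reads with several matches were counted. Exons of Mmp12 and Mmp1b also overlap on opposite strands.

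**Figure D2:**
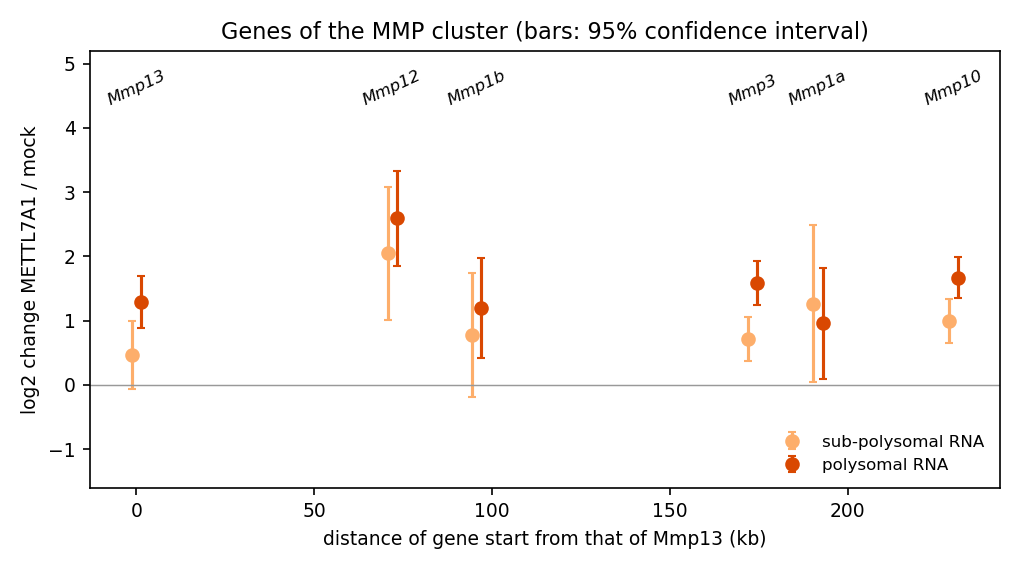
Log2 change from mock to METTL7A1 cells of the 6 tested genes of the chromosome 9 cluster (y axis) against the distance of each gene start from that of Mmp13 in kb (x axis), with 95% confidence intervals. All 6 polysomal values lie above 0, from 0.96 for Mmp1a to 2.59 for Mmp12.

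The promoters of these neighbours are shown because 5 of the 6 genes, all but Mmp1a, rose in polysomal RNA at an adjusted p below 0.05, and because they share a letter pattern. Each line gives the bases from 110 to 26 before the RefSeq start site (GRCm38.p6), 5′ to 3′ on the strand of the gene. The pattern TGANTCA, where N is any base, is in capitals and reads the same on both strands. With C or G at N, as in the lines below, it is the core bound by AP-1 transcription factors. The pattern was chosen after the values were seen. The Mmp12 line belongs to the second of its start sites, inside the gene, since the stretch at the first holds no match.

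Mmp13, chr9:7272404-7272488, plus strand: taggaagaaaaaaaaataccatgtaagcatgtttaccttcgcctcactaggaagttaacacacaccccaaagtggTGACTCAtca
Mmp12, chr9:7347264-7347348, plus strand: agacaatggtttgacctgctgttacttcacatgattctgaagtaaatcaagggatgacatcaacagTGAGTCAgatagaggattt
Mmp1b, chr9:7388052-7388136, minus strand: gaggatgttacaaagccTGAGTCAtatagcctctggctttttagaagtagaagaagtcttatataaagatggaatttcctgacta
Mmp3, chr9:7445712-7445796, plus strand: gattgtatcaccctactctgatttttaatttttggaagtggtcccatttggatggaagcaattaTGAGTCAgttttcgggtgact
Mmp1a, chr9:7464031-7464115, plus strand: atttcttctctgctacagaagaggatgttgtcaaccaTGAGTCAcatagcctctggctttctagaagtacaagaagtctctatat
Mmp10, chr9:7502232-7502316, plus strand: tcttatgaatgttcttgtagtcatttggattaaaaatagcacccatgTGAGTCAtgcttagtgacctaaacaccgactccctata

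The pattern began 35 bases before the start in Mmp13, 44 in Mmp12, 93 in Mmp1b, 46 in Mmp3, 73 in Mmp1a and 63 in Mmp10. Within 250 bases before a start it occurs, with any base at N, in 7.82% of the 27025 genes with a RefSeq window in the table used. Among the tested members with a window it was found in 7 of 34, these 6 and Col6a1, which was lower in METTL7A1 cells. Of the 4 cluster genes without a count, Mmp20 (with A at N) and Mmp7 also hold it and Mmp8 and Mmp27 do not. Mmp9 has no window in the table. A match says only that these letters are present.

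The laminins divided by chain. Lama3 and Lamb3 encode an alpha and a beta chain of the laminin that anchors epithelial cells at hemidesmosomes. Lamb3 (chromosome 1, 193207725 to 193343878, plus strand) was at 173, 137 and 193 CPM in mock polysomal RNA and at 419, 393 and 342 CPM in METTL7A1 polysomal RNA (log2 change 1.20, standard error 0.17, adjusted p = 5.33e-05). In sub-polysomal RNA it was at 118, 132 and 114 against 244, 200 and 161 CPM (log2 change 0.73, standard error 0.17, adjusted p = 0.00308). The genotypes did not overlap in either pool.

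Lama3 passed the test in polysomal RNA and not in sub-polysomal RNA, and the difference between the pools is tested with the shift below. It was at 66.9, 63.5 and 76.1 CPM in mock polysomal RNA and at 169, 119 and 128 CPM in METTL7A1 polysomal RNA (log2 change 1.01, standard error 0.15, adjusted p = 0.000159). Sub-polysomal levels overlapped, at 76.9 ± 7.0 and 81.1 ± 13 CPM (log2 change 0.08, standard error 0.16, adjusted p = 0.74).

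Of the chains of other laminins, Lamb1 fell in sub-polysomal RNA from 299 ± 18 to 171 ± 32 CPM (log2 change -0.81, standard error 0.18, adjusted p = 0.00193) and had a polysomal log2 change of -0.19 (standard error 0.17, adjusted p = 0.495). Lamc1, Lamb2 and Lama5 had polysomal log2 changes between -0.04 and 0.03, none past 0.05.

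Among collagens, Col7a1 rose in both pools. It encodes the anchoring fibrils that tie the epithelial basement membrane to the dermis (chromosome 9, 108953586 to 108984875, plus strand, far from the MMP cluster). Its polysomal levels were 14.1, 10.6 and 12.5 CPM in mock and 28.9, 31.1 and 23.4 CPM in METTL7A1 cells (log2 change 1.17, standard error 0.16, adjusted p = 5e-05). The sub-polysomal levels were 11.3, 12.9 and 10.1 CPM against 37.5, 31.3 and 29.2 CPM (log2 change 1.52, standard error 0.19, adjusted p = 1.48e-05), with no overlap in either pool. Its sub-polysomal log2 change was under 1.5 without mock library C (1.40) or METTL7A1 library D (1.42).

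The type IV collagen chains differed less. Col4a1 and Col4a2, which form the common network of basement membranes, are transcribed in opposite directions from a shared start region on chromosome 8. Their polysomal log2 changes were 0.42 (standard error 0.17, adjusted p = 0.093) and 0.53 (standard error 0.17, adjusted p = 0.0402). The second was no longer below 0.05 without mock library B (0.39, adjusted p = 0.189), mock library C (0.58, adjusted p = 0.0532), METTL7A1 library D (0.44, adjusted p = 0.111) or METTL7A1 library E (0.49, adjusted p = 0.167). Per kb, Col4a1 exceeded Col4a2 in every library, by 1.51 to 1.83 times in polysomal RNA and by 1.91 to 2.65 times in sub-polysomal RNA. Col18a1, Col8a1 and Col16a1 had polysomal log2 changes between -0.01 and 0.09.

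Col5a1, a chain of the minor fibrillar type V collagen, went the other way in sub-polysomal RNA. It was at 10.2, 9.13 and 4.54 CPM in mock and at 3.32, 0.993 and 1.91 CPM in METTL7A1 cells, a total of 70 against 22 counts (log2 change -1.88, standard error 0.44, adjusted p = 0.00319). That adjusted p rose above 0.01 without mock library A (0.0136) or B (0.0163) or METTL7A1 library E (0.0258) or F (0.0161). In polysomal RNA the log2 change was -0.69 (standard error 0.29, adjusted p = 0.113). Col6a1, a chain of the microfibrillar type VI collagen, had 13 counts in mock sub-polysomal RNA and none in METTL7A1 sub-polysomal RNA, which puts it at least 4.86-fold lower (3 counts over the group as the floor).

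Of the adhesive glycoproteins, Tnc (tenascin-C, a large anti-adhesive protein of tumour stroma and wounds; chromosome 4, 63959785 to 64047015, minus strand) differed most. It was at 28.8, 19.2 and 17.96 CPM in mock sub-polysomal RNA and at 6.96, 3.23 and 4.30 CPM in METTL7A1 sub-polysomal RNA. The ranges lie far apart (log2 change -2.17, standard error 0.28, adjusted p = 2.47e-05). In polysomal RNA the levels were 21.4, 21.3 and 21.1 CPM in mock and 15.6, 14.1 and 8.93 CPM in METTL7A1 cells, which do not overlap either (log2 change -0.71, standard error 0.21, adjusted p = 0.0223). The polysomal value was no longer below 0.05 without mock library B (adjusted p = 0.0613), METTL7A1 library E (0.0593) or METTL7A1 library F (0.127, log2 change -0.52).

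Fn1 (fibronectin; chromosome 1, 71585520 to 71653200, minus strand) was among the most abundant members and had overlapping polysomal levels. These were 404, 335 and 473 CPM in mock and 537, 418 and 356 CPM in METTL7A1 cells (log2 change 0.11, standard error 0.17, adjusted p = 0.699). In sub-polysomal RNA, mock libraries at 537, 535 and 515 CPM lay above METTL7A1 libraries at 458, 382 and 387 CPM, but the difference did not pass the test (log2 change -0.37, 95% interval -0.73 to -0.01, adjusted p = 0.104).

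Thbs1 (thrombospondin-1, which binds several matrix proteins and cell receptors) rose in polysomal RNA from 187 ± 35 to 344 ± 32 CPM (log2 change 0.88, standard error 0.17, adjusted p = 0.00153), and its sub-polysomal log2 change was 0.38 (standard error 0.18, adjusted p = 0.11). Spp1 fell in sub-polysomal RNA from 425 ± 86 to 267 ± 11 CPM (log2 change -0.67, standard error 0.17, adjusted p = 0.00594) and was at 559 ± 48 and 541 ± 95 CPM in polysomal RNA (log2 change -0.05, standard error 0.17, adjusted p = 0.883). Scaled to Actb, the Spp1 difference missed 0.05. Sparc (osteonectin) and Fstl1 (follistatin-like 1) passed in neither pool, with polysomal log2 changes of 0.10 (adjusted p = 0.651) and -0.44 (adjusted p = 0.584). Their sub-polysomal log2 changes were -0.33 (adjusted p = 0.0932) and -1.41 (adjusted p = 0.0795). Fstl1 was rare, with 69 counts in all, and met the filter only through the mock libraries.

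Both inhibitors that passed the filter were abundant. Timp2, which blocks MMPs and also helps to activate the precursor of MMP2, was at 716, 704 and 820 CPM in mock and at 520, 473 and 493 CPM in METTL7A1 polysomal RNA (log2 change -0.59, standard error 0.15, adjusted p = 0.012). The METTL7A1 libraries were all lower, and the adjusted p was 0.0562 without mock library C and 0.0915 without METTL7A1 library E. Timp1, on the X chromosome, was higher in METTL7A1 sub-polysomal RNA (331 ± 77 against 214 ± 41 CPM, log2 change 0.62, standard error 0.19, adjusted p = 0.0181) and had a log2 change of 0.51 in polysomal RNA (adjusted p = 0.0653). The former was at 0.108 without METTL7A1 library D and at 0.0994 without library E. Per kb, Mmp9 stood at 0.195 to 0.337 of Timp1 in mock and at 0.666 to 0.830 in METTL7A1 polysomal RNA, and Mmp3 at 0.458 to 0.642 against 0.985 to 1.18. In sub-polysomal RNA Mmp9 stood at 0.115 to 0.210 of Timp1 in mock and at 0.347 to 0.479 in METTL7A1 cells. The Mmp3 ratios to Timp1 overlapped there, at 0.245 to 0.476 against 0.283 to 0.436.

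The membrane-type MMPs gave no call between genotypes. Mmp14, which activates the MMP2 precursor at the cell surface and cuts fibrillar collagen, was at 142 ± 22 and 112 ± 10 CPM in polysomal RNA (log2 change -0.34, 95% interval -0.74 to 0.07, adjusted p = 0.248) and at 62.5 ± 13 and 46.4 ± 17 CPM in sub-polysomal RNA (log2 change -0.42, adjusted p = 0.145). Mmp24 and Mmp15 had polysomal log2 changes of -0.60 (adjusted p = 0.219) and -0.33 (adjusted p = 0.667). Mmp11, a secreted MMP with little activity on matrix itself, had -0.43 (adjusted p = 0.147).

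ADAMTS proteases were scarce, and Adamts1 with 3247 counts was the most abundant. Adamts1, which cuts versican and aggrecan, rose in polysomal RNA from 46.5 ± 4.7 to 76.0 ± 9.4 CPM (log2 change 0.71, standard error 0.16, adjusted p = 0.00545) and had a sub-polysomal log2 change of -0.11 (adjusted p = 0.711). Adamts14, which trims procollagen, rose in both pools, by 0.99 on the log2 scale in polysomal RNA (standard error 0.16, adjusted p = 0.000214) and by 0.85 in sub-polysomal RNA (standard error 0.19, adjusted p = 0.00277). Adamts4, an aggrecanase, had 15 counts in mock and 80 in METTL7A1 polysomal RNA (log2 change 2.47, standard error 0.49, adjusted p = 0.0021), above the 0.01 limit without mock library B (0.0132) or METTL7A1 library D (0.0125) or E (0.0208). In sub-polysomal RNA it had no count in mock and 26 in METTL7A1 cells, at least 7.73-fold higher. Use of strand in the counting was not stated, and exons of several members, Adamts4 among them, overlap other genes on the opposite strand.

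In sub-polysomal RNA as a whole, 4 members were called higher, Mmp9, Mmp12, Col7a1 and Adamts4, against 1.5% of all genes tested, and 3 lower, Tnc, Col5a1 and Col6a1, against 1.26%. Adamts4 and Col6a1 had each met the filter only through the genotype in which they are higher, and over the 39 members that met it in both 3 were called higher and 2 lower. At an adjusted p below 0.05 there were 10 higher, against 16.8% of all genes, and 5 lower, against 14.5% (9 and 4 over those 39). The 10 to 5 split became 13 to 4 with counts scaled to Actb and 9 to 10 with library sizes alone, and was 9 to 8 without METTL7A1 library D. At an unadjusted p below 0.05, 13 members were higher with TMM, 18 scaled to Actb and 11 with library sizes alone. The shares over all genes were 22.1%, 33.9% and 15.6%. The median log2 change was 0.16 over the members and -0.002 over all genes. The count of 7 calls fell to 4 without mock library C, METTL7A1 library D or METTL7A1 library E.

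**Figure D3:**
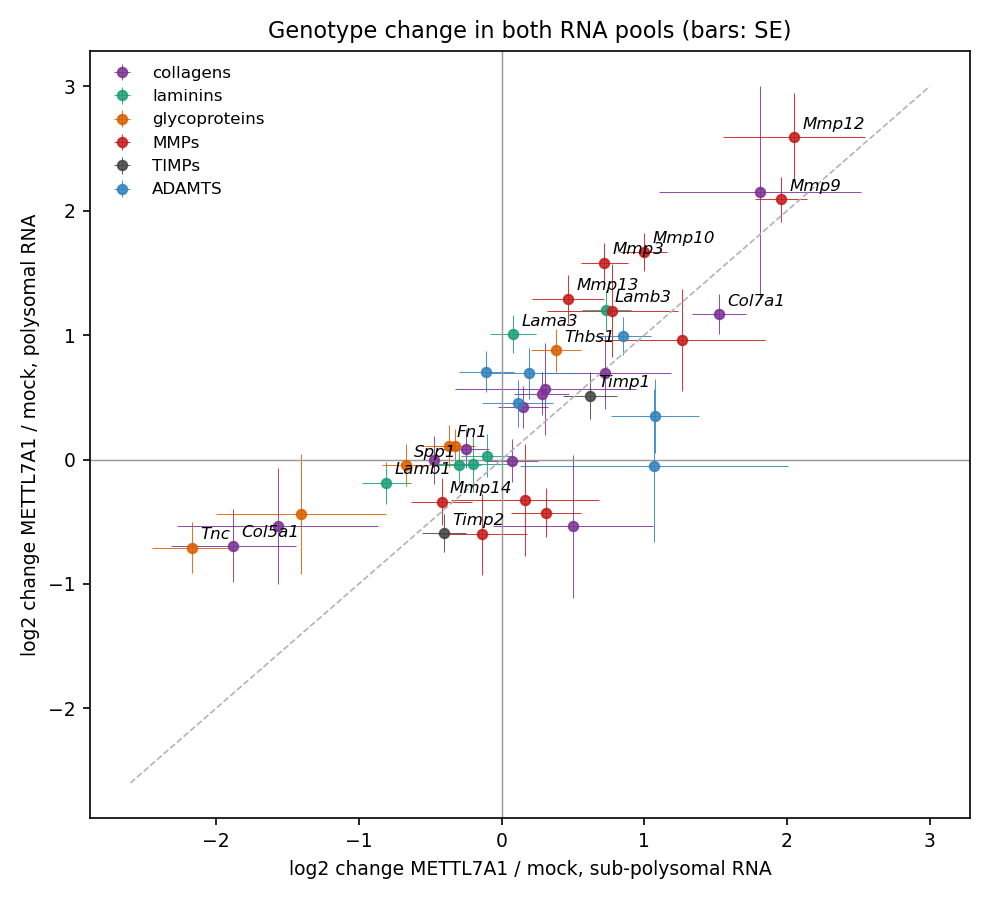
Log2 change from mock to METTL7A1 cells in sub-polysomal RNA (x axis) and polysomal RNA (y axis) for 43 tested members, coloured by kind, with standard errors as bars and a dashed line of equal change. Adamts4 and Col6a1, at 0 in 1 group, are among the 3 left out. Mmp9 lies on the line, Mmp3, Mmp10, Mmp13 and Lama3 lie above it, and Tnc and Col5a1 lie at the far left.

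Polysomal was then compared with sub-polysomal RNA within each genotype, a measure of how ribosomes were loaded on each mRNA. TMM scaling fixes these changes relative to the bulk of all genes, and with library sizes alone the median over all genes moved to 0.454 in mock and 0.526 in METTL7A1 cells. In mock cells 0 members were called, against 7.55% of all genes (also 0 with DESeq2 and limma-voom), with 15 higher and 3 lower members at an unadjusted p below 0.05 (27.4% and 26.7% of all genes). At an adjusted p below 0.05, 13 were higher in polysomes, against 23.3%, and 1 was lower, against 23.7%. Over the 39 members that met the filter in each genotype there were 12 and 1. Adamts4, among the 13, had 0 counts in mock sub-polysomal and 15 in mock polysomal RNA, and met the filter only through the METTL7A1 libraries. The 13 and 1 became 27 and 1 with library sizes alone and 6 and 1 scaled to Actb. At an unadjusted p below 0.05 the higher members were then 27 and 11, against 49% and 21% of all genes. Without mock library C the 13 and 1 became 2 and 3, and without mock library A they became 7 and 1. In METTL7A1 cells 1 member was called, Mmp24, against 12.1% of all genes, and at an adjusted p below 0.05 there were 26 higher, against 30%, and 5 lower, against 29.3%. Over the 39 members that met the filter in each genotype there were 26 and 3. Col17a1, among the 26, reached 1 CPM in 6 polysomal libraries but in 1 sub-polysomal library. Col15a1 and Col20a1, among the 5, reached it in 4 sub-polysomal libraries each and in 0 and 1 polysomal ones. With library sizes alone the METTL7A1 counts were 9 called higher and 0 lower, and 31 to 2 at 0.05. Scaled to Actb they were 0 to 4 and 17 to 6. The share of all genes called was not taken under these scalings, so these counts do not set members against other genes. At an unadjusted p below 0.05, 27 members were higher with TMM, 32 with library sizes alone and 18 scaled to Actb. The shares over all genes were 32.3%, 51.6% and 20.4%. Without METTL7A1 library D the 26 and 5 became 22 and 2, and without library E 18 and 3. The median log2 change over the members was 0.25 in mock and 0.65 in METTL7A1 cells, against 0.054 and 0.058 over all genes.

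Mmp14 had the largest polysomal excess in mock cells of members with a mean of at least 5 CPM. It was at 76.8, 60.1 and 50.7 CPM in mock sub-polysomal and at 146, 118 and 161 CPM in mock polysomal RNA (log2 change 1.20, standard error 0.20, adjusted p = 0.000113). In METTL7A1 cells the values were 65.7, 40.2 and 33.5 against 122, 113 and 102 CPM (log2 change 1.29, standard error 0.21, adjusted p = 3.46e-05). The pools did not overlap in either genotype. Next came Col4a2 (0.77, adjusted p = 0.0021), Col16a1 (0.76, adjusted p = 0.00776), Adamts8 (0.67, adjusted p = 0.0483) and Mmp11 (0.67, adjusted p = 0.0201). Of these 4, Col4a2 alone stayed below 0.05 in every setting run. Without mock library C, Col16a1 was at 0.61 (adjusted p = 0.0824), Adamts8 at 0.55 (adjusted p = 0.254) and Mmp11 at 0.39 (adjusted p = 0.275). Adamts8 missed 0.05 in 9 of 14 settings and Mmp11 in 3 of 15.

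At the other end, Mmp24 was lower in polysomes, by 1.22 on the log2 scale in mock (standard error 0.31, adjusted p = 0.00382) and by 1.68 in METTL7A1 cells (standard error 0.32, adjusted p = 0.000224). Its exons overlap BC029722 on the other strand. Its mock pools overlapped, at 40.6, 28.0 and 14.2 against 6.55, 11.8 and 14.6 CPM, and its METTL7A1 pools did not, at 31.2, 20.8 and 19.1 against 6.71, 8.60 and 6.40 CPM. Without mock library A the mock change was -0.67 (adjusted p = 0.0726), and without METTL7A1 library D the METTL7A1 change was -1.40. Among members with a mean of at least 5 CPM, the next smallest values in mock cells were those of Adamts10 (-0.63, adjusted p = 0.121), Timp1 (-0.42, adjusted p = 0.077), Fn1 (-0.39, adjusted p = 0.0672) and Lama3 (-0.15, adjusted p = 0.454).

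By median the tested members had long coding sequences, and across all genes coding length went with the pool difference. The longest coding sequence of each tested member had a median of 3428 bases, against 1389 bases over 10845 tested genes with one. Across those genes, which are not independent and share the same libraries, Spearman's correlation between coding length and the pool difference was 0.546 in mock and 0.537 in METTL7A1 cells. Across the 46 members it was 0.096 and 0.196. Members of at least 3000 coding bases (26 genes) had a median log2 pool difference of 0.28 in mock and 0.73 in METTL7A1 cells, where all 1505 genes of that length had 0.62 and 0.71. Long members thus lay below other long genes in mock cells by this description and level with them in METTL7A1 cells. The 20 members under 3000 coding bases had medians of 0.22 in mock and 0.59 in METTL7A1 cells. All 9340 genes of that length had 0.04 and 0.03, so short members lay above other short genes in both genotypes by the same description.

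**Figure D4:**
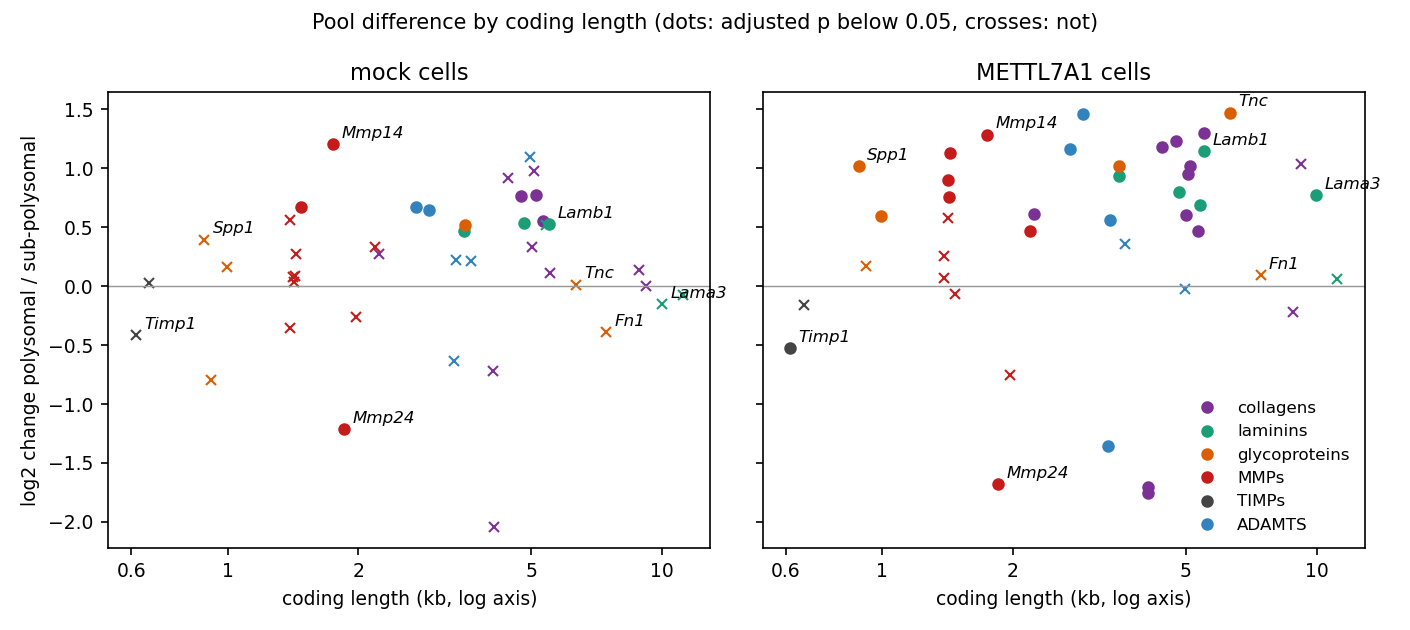
Log2 change from sub-polysomal to polysomal RNA (y axis) against coding length in kb (x axis, log scale) in mock and METTL7A1 cells for 43 tested members. Dots have an adjusted p below 0.05 and crosses do not. Mmp14 is high and Mmp24 low in both panels, and Tnc rises from 0.01 in mock to 1.47 in METTL7A1 cells.

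The shift is the difference between these 2 pool differences, METTL7A1 minus mock, and asks whether an mRNA moved towards polysomes. No gene of the whole table passed in this test, 0% both under the call rule and at an adjusted p below 0.05, so 0 members did. At an unadjusted p below 0.05, 10 members had a positive shift, against 6.7% of all genes, and 2 a negative one, against 8.93%. Scaled to Actb, the 10 became 4, against 2.02% of all genes. DESeq2 gave 3 members at an adjusted p below 0.05, Tnc, Lama3 and Mmp3, limma-voom gave 0, and edgeR with no filter beyond 1 count in total gave 2. The share of all genes at that limit was not taken in these settings, so the 3 and the 2 have no background. At an unadjusted p below 0.05, 12 members had a positive shift with DESeq2, against 5.96% of all genes. With no filter there were 10 of 72 members, against 3.67%. The median shift was 0.31 over the members and -0.008 over all genes. Shifts were above 0 for 33 of the 46 members and for 49.4% of all genes.

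By size of p the leading genes were Lama3 and Tnc. Lama3 had a log2 shift of 0.93 (standard error 0.22, unadjusted p = 0.00057, adjusted p = 0.114) and Tnc of 1.46 (standard error 0.36, unadjusted p = 0.00063, adjusted p = 0.114). The estimates behind these shifts differed, though neither shift passed. In METTL7A1 cells Lama3 was higher in polysomal RNA, and its sub-polysomal libraries overlapped those of mock cells (log2 change 0.08, 95% interval -0.26 to 0.42). Tnc was lower in both pools, with the larger estimate in the sub-polysomal one. Mmp3 (0.86, standard error 0.23, adjusted p = 0.129), Adamts1 (0.81, standard error 0.25, adjusted p = 0.142) and Mmp10 (0.67, standard error 0.22, adjusted p = 0.158) followed. The others at an unadjusted p below 0.05 were Spp1, Mmp13, Lamb1, Col5a1 and Sparc above 0 and Mmp11 and Adamts4 below 0, with adjusted p between 0.218 and 0.305.

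Fn1 had a log2 shift of 0.48 (95% interval -0.02 to 0.98, adjusted p = 0.338), Mmp9 of 0.14 (-0.38 to 0.65, adjusted p = 0.836) and Mmp14 of 0.08 (-0.52 to 0.69, adjusted p = 0.923). The intervals of Fn1 and Mmp14 overlap, and each is wide enough to hold shifts of either sign. All 7 laminins and all 6 adhesive glycoproteins had a shift above 0, against 49.4% of all genes, with medians of 0.28 and 0.56. Both TIMPs were below 0. None of these genes passed for the shift, and the signs were not tested as groups. Every member's shift rests on the same 12 libraries. Transcript GC content went with the shift, at a Spearman correlation of -0.477 over all 10845 genes and -0.464 over the 46 members, whose median GC was 55.1% against 50.6%. Its part in the shift was not tested.

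**Figure D5:**
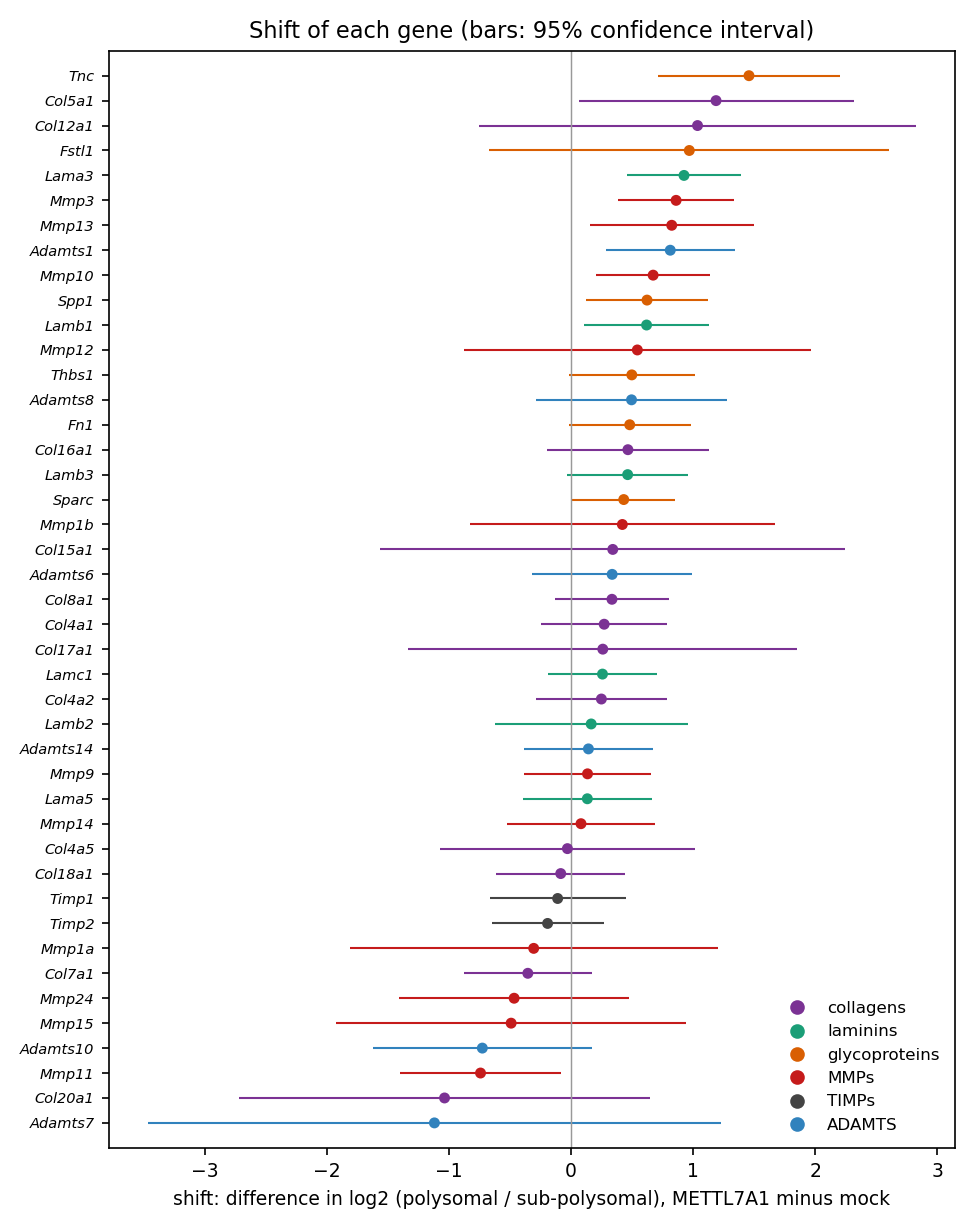
Log2 shift towards polysomes in METTL7A1 relative to mock cells (x axis) of 43 tested members (y axis, ordered by value), with 95% confidence intervals. Tnc is highest at 1.46, Mmp14 is near 0 at 0.08, and no adjusted p is below 0.05.

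Other genes of the pathway were taken as lists, whose counts at an adjusted p below 0.05 stand beside 9.69% of all genes higher and 8.28% lower in polysomal RNA, and 16.8% and 14.5% in sub-polysomal RNA. Of 9 tested genes of the plasminogen system, whose proteases activate MMPs, 4 were higher and 0 lower in METTL7A1 cells at an adjusted p below 0.05 in each pool, and the median log2 change was 0.54 for polysomes and 0.51 for the sub-polysomal pool. Plau (urokinase) had a polysomal log2 change of 1.02 (standard error 0.16, adjusted p = 0.000263). Of 14 membrane and other proteases, 4 rose and 2 fell in the polysomal pool, and Adam8, a sheddase, was called in both pools (log2 change 1.95 in polysomal and 1.78 in sub-polysomal RNA, adjusted p = 2.15e-07 and 3.36e-06). Reck, a membrane inhibitor of MMPs, was called lower in polysomal RNA (-1.79, adjusted p = 0.00827) at a mean of 1.32 CPM.

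Of 26 genes for collagen folding, cross-linking and export, 9 rose and 3 fell there. Pcolce, which speeds the trimming of procollagen, was called lower in both pools (-2.18 and -2.74 on the log2 scale, adjusted p = 1.24e-06 and 3.56e-06). Among 21 other matrix proteins 3 rose and 3 fell in the polysomal pool, with Postn (periostin) called higher at 2.55 and Mgp (matrix Gla protein) called lower at -2.56. Of 15 matrix receptors other than integrins 4 were higher and 1 lower, the latter being Bcam, a laminin receptor, at -2.19. No gene of these lists passed for the shift, as for the whole table.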

How the data were processed

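Total RNA of each pool was sequenced after ribosomal RNA depletion with a stranded kit. Per the paper's methods and the processing notes, the authors trimmed reads with BBDuk, aligned them to mm10 with STAR 2.5.3a, counted reads per Ensembl GRCm38 gene with featureCounts, and deposited raw counts per gene, which were used here as given. The strand and multiple-match settings were not given in the sources used here. Counts were tested with edgeR 4.0.16 (TMM factors, quasi-likelihood test, 1 mean per group over 12 libraries, R 4.3.3) for genes reaching 1 CPM in 3 libraries or more, and p-values were adjusted by Benjamini-Hochberg over all 12224 genes. Calls needed an adjusted p below 0.01 and a log2 change beyond 1.5, as in the study's methods. The fit was tested on simulated data. DESeq2 1.42.0, limma-voom (limma 3.58.1), other scalings and filters, a replicate block and leaving out each letter were the alternatives. Genes were named if abundant, called, extreme in a pool comparison or among Fn1, Tnc, Mmp14, Thbs1, Sparc, Fstl1, Spp1 and the TIMPs. Mmp13, Mmp1a, Mmp1b, Mmp15, Adamts14, Lamb2, Plau and Reck, with Postn, Bcam and the promoter pattern, were singled out after their values were seen. The members and lists were chosen with earlier results of these data known. Whether a letter marks the same gradient in both pools is not stated, and the fit has no block: deviations from group means of same-lettered libraries correlated at -0.292 to 0.107. Coding lengths, GC and shared 31-base stretches came from GENCODE M21 and promoters from RefSeq (GRCm38.p6). Some results of single genes are not reported here, and the plots leave 1 tested member out for that reason.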

Additional observations from a re-analysis of the deposited data

How the results depend on the processing

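The members called in polysomal RNA between genotypes numbered 5, and 3 with at least 10 counts in every library, a filter that leaves 31 members. Without 1 library letter they numbered 3 to 6. At an adjusted p below 0.05 with no size limit there were 18, with DESeq2 16 and with limma-voom 18. In sub-polysomal RNA the 7 became 4 with limma-voom, 3 with at least 10 counts in every library, 4 with only the groups compared and 4 to 5 without 1 letter, and without the size limit 15, 17 (DESeq2) and 18 (limma-voom). Between pools of mock cells the 0 became 2 with library sizes alone, 1 with no filter and 0 to 1 without 1 letter (1 without C), and without the size limit 14, 15 (DESeq2) and 15 (limma-voom). Between pools of METTL7A1 cells the 1 became 9 with library sizes alone, 4 scaled to Actb, 2 with no filter, 3 with only the groups compared and 1 to 4 without 1 letter (3 without B or D, 2 without C, 4 without F), and without the size limit 31, 28 (DESeq2) and 31 (limma-voom). For the shift the 0 stayed at 0 in every setting run with the call rule, and without the size limit it became 3 with DESeq2 and 2 with no filter. The Mmp14 log2 change, shift to polysomes between genotypes, was -0.0787 scaled to Actb and -0.0447 to 0.339 without 1 letter (below 0 without A, B, E or F). Where these moves were not due to fewer genes or libraries, the cause was not tested. The share of all genes called was not taken in these alternatives, so their counts do not set members against other genes. What the letters mean is not stated, and deviations of same-lettered libraries correlated at -0.292 to 0.107. With the replicate block the counts were 0 and 1 between the pools and 0 for the shift. No member past an adjusted p of 0.05 changed sign under an alternative run, and values stayed below 0.05 in every setting for 12 of 18 members in polysomal RNA, 12 of 15 in sub-polysomal RNA, 2 of 14 between pools of mock cells and 18 of 31 between pools of METTL7A1 cells. The totals of 1817520 to 6966156 counts limit what can be seen of members near 1 CPM, and with 3 libraries a group the 95% intervals of the shift run from -0.52 to 0.69 even for Mmp14.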
